A study of Mus musculus with 12 samples.

Results

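The 36 genes described here encode the folding, export and quality control machinery of the endoplasmic reticulum (ER) and the signalling proteins of the unfolded protein response. They were taken by gene symbol from the deposited count tables, which list 23284 symbols for each tissue, and all 36 were present in both tables. By role they comprise 12 folding chaperones and their partners, 7 disulfide oxidoreductases, 5 genes of protein translocation and signal peptide processing, 6 genes of ER-associated degradation, 3 stress sensors (Atf6, Ern1 and Eif2ak3) and the 3 genes of the stress arm (Atf4, Ddit3 and Trib3). Poly(A) RNA was sequenced from the spleen and the axillary lymph node of mice at 30 weeks of age on normal laboratory diet. All animals lacked apoE and mouse apoA-I (DKO). In DKO/hA-I animals human apoA-I was overexpressed on the same double deficient background, so the comparison asks what differs when human apoA-I is absent. Each of the 4 groups held 3 libraries, each with its own animal code, and no code occurred in both tissues. The sources used here do not name the strain, the sex or the promoter driving human apoA-I.

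Proteins that enter the secretory pathway are threaded into the ER, where chaperones such as BiP (the product of Hspa5) hold them, protein disulfide isomerases form and reshuffle their disulfide bonds, and proteins that fail to fold are sent back to the cytosol for degradation. When unfolded protein accumulates, ATF6 and IRE1 (the product of Ern1, which splices Xbp1 mRNA) raise transcription of these genes, while PERK (the product of Eif2ak3) slows translation and raises ATF4 and, through it, CHOP (the product of Ddit3) and Trib3. In lymphoid tissue the machinery is known above all from plasma cells, whose antibody secretion depends on it.

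Total counts per library ran from 5911835 in DKO lymph node replicate 2 to 11950825 in DKO lymph node replicate 3. DKO lymph node replicate 2 stands apart for the genes described here. Log2 fold changes that move by more than 1.5 times without it are given both ways where they are named. Erythroid markers matched the labelled tissues, summing to 7231 to 35714 CPM in spleens and 25.9 to 330.6 in nodes. Markers of T and B cells were above 0 in every library, but both tissues hold these cells, so this does not check the tissue labels. Apoa1 (0 to 13 counts per library) and Apoe (51 to 202) are targeted in both genotypes and therefore do not test the genotype labels. The pseudogene Rpl31-ps12 had summed counts of 5 in spleens labelled DKO and 2162 in spleens labelled DKO/hA-I, whereas nodes labelled DKO had 2094 and those labelled DKO/hA-I had 3. The tissues therefore go against each other at this gene, and whether the genotype labels of 1 tissue are exchanged was not tested. An exchange would turn every genotype direction in that tissue and would change the interaction and the tissue contrasts within a genotype, but not the tissue contrast averaged over genotypes. All directions below are those of the labels. The 3 DKO nodes share the middle number of their animal code, which no DKO/hA-I node has, so genotype and that number cannot be told apart in lymph node. Tissue and deposited table coincide, so that tissue and any difference in how the tables were made cannot be told apart either.

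The sequences through which the response is known to act were looked up in the RefSeq promoter windows of GRCm38.p6, which cover 250 bases before to 50 bases after each start and matched 28 of the 36 genes. The ER stress element (ERSE: CCAAT, 9 bases, CCACG, searched on both strands) occurs in 39 of 32851 windows of all genes (0.119%). It was found in the windows of 8 of the 28 genes, of which 6 are folding chaperones. The elements are shown because ATF6 and XBP1 are known to act through this site. Each is read 5′ to 3′ on the gene's own strand with both ends of the element in capitals, so that an element on the other strand appears as CGTGG, 9 bases, ATTGG.
Calr chr8:84847070-84847098 (- strand): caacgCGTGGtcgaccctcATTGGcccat
Canx chr11:50325795-50325823 (- strand): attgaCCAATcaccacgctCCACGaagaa
Creld2 chr15:88819515-88819543 (+ strand): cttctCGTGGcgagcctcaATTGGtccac
Dnajc3 chr14:118937822-118937850 (+ strand): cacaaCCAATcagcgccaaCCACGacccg
Hsp90b1 chr10:86705528-86705556 (- strand): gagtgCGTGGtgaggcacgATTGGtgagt
Hsp90b1 chr10:86705633-86705661 (- strand): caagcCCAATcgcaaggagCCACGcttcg
Hspa5 chr2:34772020-34772048 (+ strand): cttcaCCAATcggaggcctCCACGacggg
Pdia6 chr12:17266486-17266514 (+ strand): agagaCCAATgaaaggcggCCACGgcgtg
Syvn1 chr19:6046527-6046555 (+ strand): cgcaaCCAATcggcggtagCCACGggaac

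ERSE-II (ATTGG, 1 base, CCACG) is in 0.0365% of all windows and was found for 2 genes, Herpud1 and Dnajb11, the latter after its start. The UPR element TGACGTGG, whose CGTGG is the reverse complement of CCACG, is in 0.676% of windows and was found for Txndc5 only among the 28 genes. The amino acid response element TTGCATCA, the kind of site through which ATF4 acts, is in 0.895% of windows and was found for Herpud1 only among the 28 genes, a gene that thus carries letters of both kinds.
Herpud1, ERSE-II, chr8:94386372-94386392 (+ strand): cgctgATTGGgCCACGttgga
Txndc5, UPR element, chr13:38528040-38528057 (- strand): gccgcTGACGTGGcgcta
Herpud1, amino acid response element, chr8:94386312-94386329 (+ strand): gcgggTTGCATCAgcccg

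No exact match to these 4 elements was found for Atf4, Ddit3 and Trib3 in the windows searched. Windows were not matched for all genes described, and they start 250 bases upstream. Sites farther upstream or with other letters were not searched, so a missing match does not show that a gene lacks such sites. A match describes the letters only. The best known of these promoters, that of Hspa5, is given whole for its 250 upstream bases, chr2:34771840-34772089 (+ strand, GRCm38.p6), with the exact ERSE in capitals near its 3′ end.
Hspa5 upstream: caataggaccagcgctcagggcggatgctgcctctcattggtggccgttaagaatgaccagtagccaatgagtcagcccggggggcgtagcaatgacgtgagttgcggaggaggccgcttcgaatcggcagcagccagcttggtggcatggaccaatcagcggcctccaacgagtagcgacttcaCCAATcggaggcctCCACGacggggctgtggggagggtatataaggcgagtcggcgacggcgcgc

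Per kilobase of exon, Hsp90b1 had the highest level of the 36 genes in all 4 groups, ahead of Calr by less than the spread in DKO/hA-I nodes. As counts scaled to library size (CPM) and divided by exon length (GENCODE vM21), Hsp90b1 (the ER member of the Hsp90 family, also called GRP94) had 257 ± 32.8 CPM per kb in DKO/hA-I spleen and 207 ± 57.0 in DKO/hA-I node (means ± SD, n = 3). Calr, the calcium-binding lectin calreticulin, had 214 ± 13.4 and 203 ± 40.7, and Hspa5 had 159 ± 13.8 and 146 ± 31.7 CPM per kb. Among the lowest levels were those of Derl2, part of the machinery that draws misfolded proteins out of the ER, with 5.85 ± 0.647 and 6.45 ± 0.307 CPM per kb, Fkbp11, a prolyl isomerase of secretory cells, with 2.21 ± 0.270 and 1.69 ± 0.921, Ern1 with 6.73 ± 0.756 and 4.19 ± 1.18, and the pseudokinase gene Trib3 with 0.602 ± 0.248 and 2.68 ± 0.482. Exons of 12 of the 36 genes overlap exons of another gene on either strand (Ddit3, Txndc5 and Hsp90b1 among them). The sources used here do not state whether counting used strand, so reads of such neighbours cannot be told apart.

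**Figure D1:**
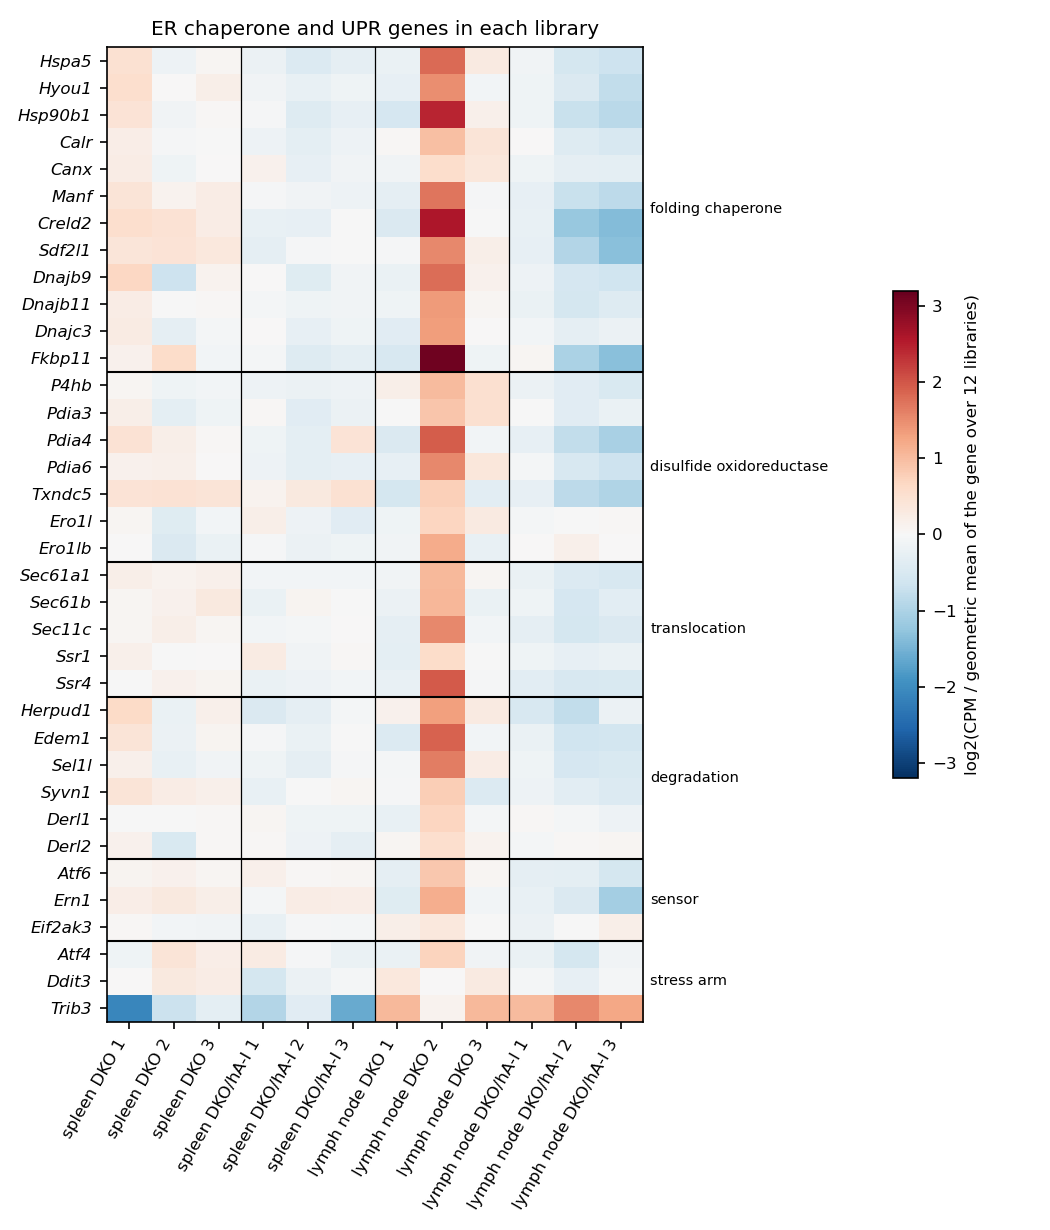
Level of each of the 36 genes (vertical axis, grouped by role) in each of the 12 libraries (horizontal axis) as log2 of the CPM over the gene's geometric mean across libraries. DKO lymph node replicate 2 is the highest of its group for 34 of 36 genes, and Trib3 alone separates the tissues in every library.

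In lymph node the folding chaperones were highest in 1 library, DKO replicate 2. Hspa5 (BiP) stood at 720.2, 2908 and 1014 CPM in DKO nodes 1, 2 and 3 and at 771, 556 and 524 in the DKO/hA-I nodes. Hsp90b1 stood at 840.0, 6543 and 1366 CPM against 1096, 742 and 666. Creld2, an ER disulfide isomerase-like protein induced by ER stress, stood at 58.5, 487 and 80.4 CPM against 68.7, 34.6 and 30.7. In all 3 genes DKO node 2 was the highest of the 6 nodes, while DKO node 1 lay among the DKO/hA-I nodes, so the genotype groups overlapped. The same library held 61.5 CPM of Fkbp11 against 4.95 and 6.44 in the other DKO nodes, the widest spread of the 36 genes within that group (12.4-fold). Bulk tissue was sequenced, so more cells of a type that expresses these genes and more RNA per cell cannot be told apart.

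Over the 36 genes DKO node 2 was the highest of the 3 DKO nodes for 34, against 38.0% of the 14393 genes set side by side in that group. The median ratio of highest to lowest DKO node was 2.60 for the 36 genes and 1.41 for all genes. Among the DKO/hA-I nodes replicate 1 was the highest for 29 of the 36, against 33.6% of 14446 genes. The median ratio in that group was 1.31 for the 36 genes and 1.25 for all genes. The 12 folding chaperones together took 1.42% of all counts in DKO node 2 (95% exact binomial interval 1.41 to 1.43, covering counting error only), against 0.328% (0.325 to 0.331) in node 1 and 0.447% (0.443 to 0.450) in node 3. Within the stress arm Ddit3 (CHOP) had its lowest DKO value there, with 27.8, 22.3 and 27.2 CPM in nodes 1, 2 and 3, and so had Trib3, with 4.86, 2.53 and 4.85 CPM. Atf4 stood at 147, 276 and 156 CPM, highest in node 2.

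Plasma cell markers were high in the same library. The 10 markers found in the tables summed to 10652 CPM in DKO node 2, against 2014 and 2507 in DKO nodes 1 and 3 and 1299 to 2022 in the DKO/hA-I nodes. None of the 10 was at 0 in any library, and Igj, the immunoglobulin joining chain, carried most of the sum with 6193 CPM in DKO node 2. Xbp1 and Derl3, which are on this list, also belong to the unfolded protein response, and Xbp1 stood at 197, 1669 and 267 CPM in the DKO nodes and 216, 152 and 135 in the DKO/hA-I nodes. Macrophage markers were lower in DKO node 2 than in the other DKO nodes (1328 CPM summed over 9 genes, against 3740 and 4610) and stood at 559 to 717 in the DKO/hA-I nodes. B cell markers summed to 2613 CPM in it, within the 2301 to 4412 of the other nodes. T cell markers summed to 644 CPM in it, below the 901 to 1292 of the other nodes. Markers of gland epithelium summed to 73.7 CPM, against 4.70 to 9.01 in the other nodes, of which Epcam made up nearly all (428 counts, with 4 of the 8 markers at 0). Exocrine pancreas markers summed to 3.71 CPM in it and 1.93 to 2.79 in the other nodes, with 6 of 9 markers at 0. With genotype in lymph node, 5 of 9 macrophage markers and 5 of 8 fibroblast markers were called higher in DKO and 8 of 8 adipocyte markers lower, the latter summing to 99.6 to 139.6 CPM in DKO nodes and 740.1 to 2061 in DKO/hA-I nodes. Plasma cell markers had a median log2 fold change of 1.72 with 1 of 10 called (Sdc1), and T and B cell markers had medians of -0.51 and -0.54 with none called. The part of these cell types in the levels of the 36 genes was not tested.

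**Figure D2:**
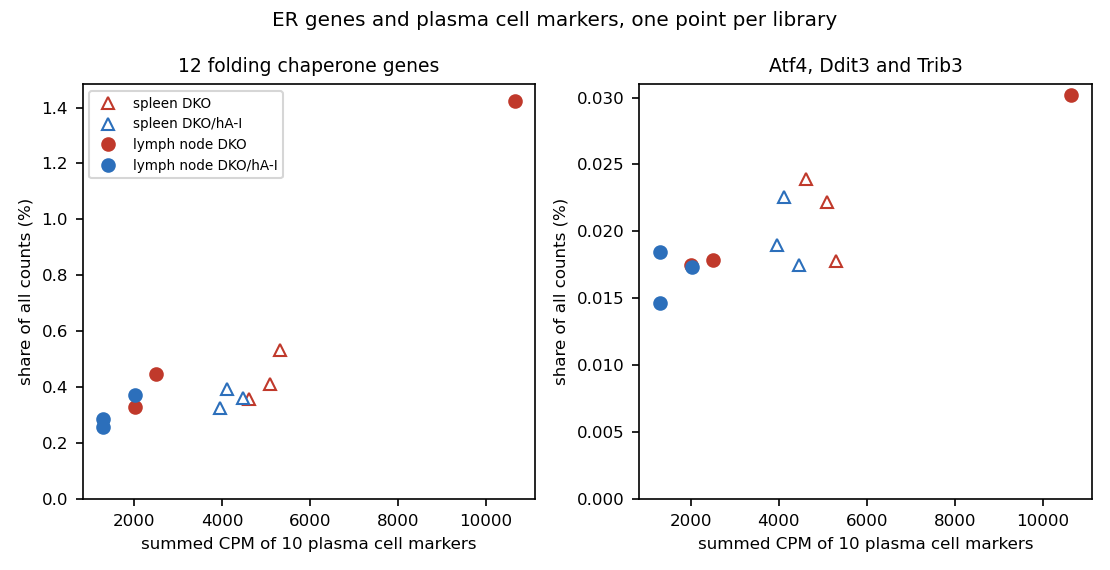
Share of all counts (vertical axes, percent) taken by the 12 folding chaperones (left) and by Atf4, Ddit3 and Trib3 (right) against the summed CPM of 10 plasma cell markers (horizontal axis), with 1 point per library. DKO lymph node replicate 2 lies at 1.42% and 10652 CPM in the left panel, while in the right panel it lies at 0.0302%, above the other libraries, most of it Atf4.

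Between the genotypes in lymph node, 1 of the 36 genes passed the test, the disulfide isomerase gene P4hb (chromosome 11, 120560298 to 120573253, GRCm38). P4hb, which also serves as a subunit of prolyl 4-hydroxylase, stood at 408, 726 and 512 CPM in DKO nodes, against 319, 278 and 259 in DKO/hA-I nodes. Every DKO node lay above every DKO/hA-I node, and the log2 fold change was 0.96 ± 0.22 (SE, edgeR adjusted p = 0.0434). Of all 14012 genes tested 6.87% were called, so 1 of 36 is below the background. The P4hb call was lost with limma voom (adjusted p = 0.0506), with edgeR on total counts only (adjusted p = 0.0565), and without DKO node 3 or any of the DKO/hA-I nodes (edgeR adjusted p = 0.104 to 0.155). DESeq2 called 9 of the 36, against 13.0% of all genes, and a single edgeR fit of all 12 libraries called 14, against 15.4%. The log2 fold change was above 0 for 35 of the 36 genes (median 0.89, against 0.01 over all genes tested), and 21 had an unadjusted p under 0.05, against 25.1% of all genes by edgeR. For 12 of the 36 all DKO nodes lay above all DKO/hA-I nodes, against 15.6% of genes tested, namely 4 folding chaperones, 3 translocation genes, 2 oxidoreductases, 2 degradation genes and Ddit3.

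Without DKO node 2 a second gene passed. P4hb was at 0.70 ± 0.15 (edgeR adjusted p = 0.0148) and Herpud1, which anchors the degradation complex in the ER membrane, was called as well, at 0.70 ± 0.17 (adjusted p = 0.0292). With all libraries Herpud1 stood at 224, 503 and 248 CPM in DKO nodes against 142, 118 and 178, without overlap, at 1.16 ± 0.32 (edgeR adjusted p = 0.0759). The median log2 fold change over the 36 genes was 0.34, and 33 were positive. Of the 36 values, 30 were smaller by more than 1.5 times than with all libraries, 2 had the other sign and 4 lay within 1.5 times. With 2245 of 14296 genes called (15.7%), 2 of 36 was again below the background.

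Among the folding chaperones none passed the lymph node test with or without DKO node 2. Their log2 fold changes ran from 0.54 ± 0.18 for Canx, the membrane lectin calnexin, to 2.37 ± 0.98 for Fkbp11 with all libraries, and from 0.03 ± 0.14 for Dnajc3, an inhibitor of PERK and co-chaperone of BiP, to 0.87 ± 0.30 for Sdf2l1 without that library. Fkbp11 came to 0.32 ± 0.40 without it, while Dnajc3 was at 0.72 and Sdf2l1 at 1.53 with all libraries. Hspa5 came from 1.34 ± 0.49 to 0.50 ± 0.21, Hsp90b1 from 1.82 ± 0.71 to 0.41 ± 0.27 and Creld2 from 2.23 ± 0.80 to 0.65 ± 0.39. Sdf2l1, a partner of the BiP cochaperones, stood at 56.3, 169 and 66.2 CPM in DKO nodes against 48.3, 30.3 and 22.9 in DKO/hA-I nodes, without overlap (edgeR adjusted p = 0.0902, and 0.108 without DKO node 2). Calr stood at 736, 1380.1 and 945 CPM against 719, 536 and 501, also without overlap (edgeR adjusted p = 0.0964 and 0.0903). The nucleotide exchange factor Hyou1, the secreted chaperone-like factor Manf and the BiP cochaperone Dnajb9 each had DKO node 2 at the top (556, 424 and 183 CPM) and the lowest DKO node inside the DKO/hA-I range. Dnajb11, another BiP cochaperone, stood at 130.3, 374 and 152 CPM against 124, 98.1 and 109.

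None of the other 6 oxidoreductases passed the test with or without DKO node 2. Pdia4 stood at 178, 936 and 232 CPM in DKO nodes against 206, 142 and 119 in DKO/hA-I nodes, with a log2 fold change of 1.54 ± 0.61 that came to 0.41 ± 0.24 without DKO node 2. Pdia3, which acts on glycoproteins held by calnexin and calreticulin, stood at 529, 981 and 761 CPM against 526, 418 and 463 and did not overlap. The thiol oxidases that recharge the isomerases had the smallest values of the 7: Ero1l was at 0.34 ± 0.20 (0.11 ± 0.14 without DKO node 2) and Ero1lb at 0.38 ± 0.36, and Ero1lb had the opposite sign without DKO node 2 (-0.23 ± 0.11, edgeR adjusted p = 0.202). Of the translocation genes, Ssr4, a subunit of the translocon-associated complex, was at 1.38 ± 0.55 and Sec61a1, the channel itself, at 0.83 ± 0.30, and both lay above the DKO/hA-I nodes in all DKO nodes. Leaving out DKO node 2 brought them to 0.33 ± 0.12 and 0.38 ± 0.13. The signal peptidase subunit Sec11c was at 1.08 ± 0.45 (0.27 ± 0.12 without that library) and did not overlap either, while Sec61b and Ssr1 did.

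Among the degradation genes, Sel1l, the scaffold of the ubiquitin ligase complex, stood at 223, 723 and 274 CPM in DKO nodes against 212, 160.4 and 165 in DKO/hA-I nodes, without overlap (log2 fold change 1.20 ± 0.42, edgeR adjusted p = 0.134, and 0.48 ± 0.16 without DKO node 2). Edem1, a mannosidase-like protein that hands over misfolded glycoproteins, stood at 255, 1273 and 327 CPM against 301, 224 and 229 and overlapped. The ligase gene Syvn1 was at 0.52 ± 0.29, and the derlin genes Derl1 and Derl2 were at 0.26 ± 0.24 and 0.25 ± 0.16. These 3 came to 0.09 ± 0.15, -0.07 ± 0.12 and 0.08 ± 0.11 without DKO node 2, with the other sign for Derl1. Of the sensors, Ern1 stood at 38.8, 113 and 47.5 CPM against 42.5, 36.5 and 23.6, Atf6 at 108, 240.2 and 139 against 109.6, 106 and 90.3, and Eif2ak3 at 93.1, 102 and 79.9 against 71.7, 80.6 and 92.4, and the groups overlapped in all 3.

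The stress arm showed no called genotype difference in lymph node. Ddit3 stood at 27.8, 22.3 and 27.2 CPM in DKO nodes against 21.3, 18.5 and 21.2 in DKO/hA-I nodes, higher in DKO without overlap by 0.36 ± 0.15 on the log2 scale (edgeR adjusted p = 0.188, and 0.0596 without DKO node 2). Atf4 was at 0.48 ± 0.26 and came to 0.13 ± 0.14 without DKO node 2. Trib3, at 4.86, 2.53 and 4.85 against 4.74, 6.77 and 5.59 CPM, was the only one of the 36 genes with a negative log2 fold change (-0.44 ± 0.30, edgeR adjusted p = 0.415, and -0.22 ± 0.25 without DKO node 2). Trib3 rests on 15 to 75 counts per node.

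**Figure D3:**
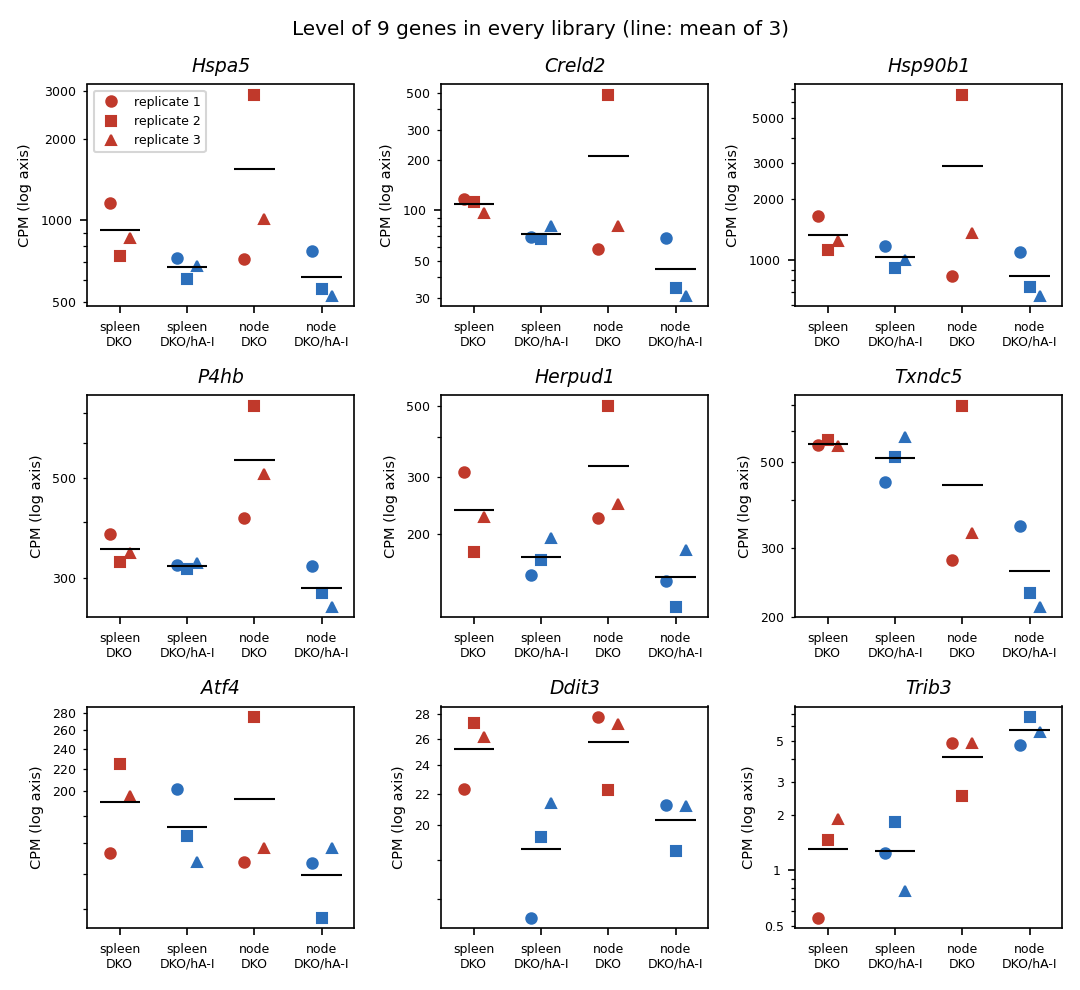
CPM of 9 of the 36 genes (log vertical axes) in each library of the 4 groups (horizontal axis), with circles, squares and triangles for replicates 1, 2 and 3 and a line at the group mean. The square of DKO lymph node is the highest point for the 6 genes of the upper rows and Atf4 but the lowest of its group for Ddit3 and Trib3.

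Other genes of the pathway were counted from lists of the same roles. In lymph node their counts stand against 6.87% of all genes called by edgeR and 25.1% with an unadjusted p under 0.05. In lymph node, 2 of 21 further folding and glycosylation genes were called, both higher in DKO: Tmed9, a cargo receptor of the early secretory pathway (0.64 ± 0.15, edgeR adjusted p = 0.048), and Prkcsh, the beta subunit of glucosidase II (0.57 ± 0.14, adjusted p = 0.048). None of 13 further translocation genes (6 with an unadjusted p under 0.05) and none of 12 further degradation genes (7) was called by edgeR. Of 9 further regulators 2 were called, both higher: Wfs1, an ER membrane protein (2.31 ± 0.35, adjusted p = 0.0162), and the ER-bound transcription factor gene Creb3l1 (1.16 ± 0.25, adjusted p = 0.0357). Of 22 further genes of the integrated stress response, Atf3, a stress-induced transcription factor, was higher (3.04 ± 0.63, adjusted p = 0.0337) and Vldlr, a lipoprotein receptor, was lower (-1.30 ± 0.29, adjusted p = 0.0399). Wfs1 and Atf3 differed from the chaperones in the library that was high: Atf3 stood at 98.6, 21.1 and 151 CPM in DKO nodes 1, 2 and 3 and Wfs1 at 106, 38.6 and 98.4 CPM, lowest in node 2 in both. Without DKO node 2, 5 folding genes, 1 degradation gene, 2 regulators and 3 stress response genes of these lists were called, all higher in DKO. Of all genes tested 15.7% were called in that setting.

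In the authors' deposited table for lymph node, 11 of the 36 genes had a q-value under 0.05, against 3.37% of all genes in it, the lowest being 6.55e-06 for Creld2. In the authors' deposited table for spleen none had, against 0.0344% of all genes, and the lowest q-value was 0.999991. Both shares are over all 23284 genes listed, including low genes that the edgeR tests left out. All 36 genes passed that filter, so these shares are not like those given for edgeR.

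In spleen no gene of the 36 passed the edgeR test between the genotypes, where 1 of 14009 genes did (0.00714%). Without a call, 7 of the 12 folding chaperones stood higher in spleens labelled DKO in every library. Creld2 stood at 117, 112 and 95.9 CPM in DKO spleens 1, 2 and 3 and at 69.0, 67.3 and 80.4 in DKO/hA-I spleens (108 ± 11.0 against 72.2 ± 7.12, SD, n = 3). Sdf2l1 stood at 75.8, 78.7 and 72.6 CPM against 47.5, 56.7 and 57.5. Neither overlapped, and the log2 fold changes were 0.58 ± 0.12 for Creld2 (unadjusted p = 0.00084, edgeR adjusted p = 0.929) and 0.48 ± 0.12 for Sdf2l1 (unadjusted p = 0.002, edgeR adjusted p = 0.929).

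Hspa5 stood at 1156, 736 and 859.6 CPM in DKO spleens and 725, 609 and 679 in DKO/hA-I spleens, and Hyou1 at 287, 201 and 225 against 182, 168 and 178, both without overlap. Hsp90b1, at 1653, 1119 and 1240.4 against 1179, 918 and 1008 CPM, overlapped in 1 DKO library. DKO spleen 1 was the highest of the DKO spleens for 10 of the 12 folding chaperones and for 23 of the 36 genes, against 39.3% of all genes. In total 14 of the 36 genes had every DKO spleen above every DKO/hA-I spleen, against 5.10% of genes tested: 7 folding chaperones, 3 translocation genes, 2 oxidoreductases (Pdia6 and P4hb), the ligase gene Syvn1 and Ddit3. The log2 fold change was above 0 for 33 of the 36 (median 0.20, against 0.01 over all genes), and 13 had an unadjusted p under 0.05 by edgeR, against 4.40% of all genes. DESeq2 gave 11 such genes against 2.47% and limma voom 10 against 4.32%, and both called none of the 36. The DESeq2 share is over 18425 genes, including low genes that edgeR and limma voom left out, so it is not like theirs. The folding chaperones had a median of 0.37, the degradation genes 0.15 and the stress arm 0.15.

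The middle number of the animal code can serve as a block in spleen, where 2 of its 3 values occur in both genotypes. The value of DKO spleen 1 occurs in no other spleen, so with that block the genotype difference rests on DKO spleens 2 and 3 against the 3 DKO/hA-I spleens. Creld2 (0.53 ± 0.10, edgeR adjusted p = 0.0269) and Sdf2l1 (0.51 ± 0.09, adjusted p = 0.0261) were then called, both higher in DKO, among 515 of 14009 genes (3.68%). Of the 36 log2 fold changes, 10 were smaller by more than 1.5 times than without the block, 6 were larger by as much, 7 had the other sign and 13 lay within 1.5 times. Hspa5 came from 0.45 ± 0.16 to 0.20 ± 0.09, Hsp90b1 from 0.36 ± 0.16 to 0.14 ± 0.09 and Hyou1 from 0.43 ± 0.14 to 0.24 ± 0.08. Herpud1 came from 0.49 ± 0.20 to 0.23 ± 0.16, and Dnajb9 (0.28 ± 0.30 to -0.20 ± 0.15), Dnajc3 (0.10 ± 0.15 to -0.11 ± 0.08) and Canx (0.10 ± 0.14 to -0.05 ± 0.09) had the other sign. With no block and DKO spleen 1 left out, none of the 36 was called by edgeR, against 1.18% of all genes. An unadjusted p under 0.05 was found by edgeR for 8 of the 36, a count to which the 1.18% does not apply. The median was 0.13 and 25 were positive. Creld2 was then at 0.50 ± 0.13 (edgeR adjusted p = 0.0932) and Hspa5 at 0.23 ± 0.13.

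Plasma cell markers summed to 4614 to 5313 CPM in DKO spleens and 3951 to 4473 in DKO/hA-I spleens, without overlap, and 9 of 10 had a positive log2 fold change (median 0.26, none called, 4 with an unadjusted p under 0.05). Erythroid markers summed to 7231, 35714 and 19714 CPM in DKO spleens 1, 2 and 3, the reverse of the order of the chaperone shares of all counts (0.532%, 0.357% and 0.411%). In DKO/hA-I spleens 1, 2 and 3 they summed to 11117, 16667 and 10525 CPM, against shares of 0.392%, 0.326% and 0.362%. The reverse order did not hold there, as the lowest sum (spleen 3) did not have the highest share (spleen 1). All 8 erythroid markers had a positive log2 fold change (median 0.66, none called by edgeR and none with an unadjusted p under 0.05). Macrophage markers summed to 1718 to 1732 CPM in DKO spleens and 1500.3 to 1585 in DKO/hA-I spleens, without overlap. The part of these cell types in the chaperone levels was not tested.

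In the stress arm of spleen, Ddit3 stood at 22.3, 27.3 and 26.1 CPM in DKO spleens and 15.1, 19.3 and 21.4 in DKO/hA-I spleens, higher without overlap (log2 fold change 0.43 ± 0.16, edgeR adjusted p = 0.929). Atf4 stood at 153, 224 and 196 CPM against 202, 164 and 147 and overlapped. Trib3, with 5 to 19 counts per spleen, stood at 0.552, 1.47 and 1.90 CPM against 1.24, 1.83 and 0.775, where a floor of 3 counts is 0.258 to 0.331 CPM. The sensors lay closest together: Atf6 was at 0.00 ± 0.09, Eif2ak3 at 0.04 ± 0.11 and Ern1 at 0.10 ± 0.12. Of the further lists, none of 21 folding genes (1 with an unadjusted p under 0.05), 13 translocation genes (2), 12 degradation genes (3), 9 regulators (0) and 22 stress response genes (3) was called by edgeR in spleen.

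Whether the genotype difference differed between the tissues was tested in a single fit of all 12 libraries. No gene of the 36 passed, against 487 of 14608 genes called (3.33%), and 2 had an unadjusted p under 0.05 by edgeR, against 17.1%. The difference was positive for 34 of the 36, that is, a larger DKO minus DKO/hA-I difference in lymph node than in spleen, with a median of 0.63. DESeq2 called P4hb in this test, against 6.24% of all genes, and limma voom none. P4hb had the lowest p, with a difference of 0.82 ± 0.24 between tissues (edgeR adjusted p = 0.088). Without DKO node 2 the median of the 36 genes was 0.08, and none was called, against 1160 of 14835 genes. In the stress arm the values were 0.31 ± 0.33 for Atf4, -0.09 ± 0.22 for Ddit3 and -0.50 ± 0.58 for Trib3, and without DKO node 2 they were -0.04 ± 0.24, -0.01 ± 0.22 and -0.30 ± 0.55.

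**Figure D4:**
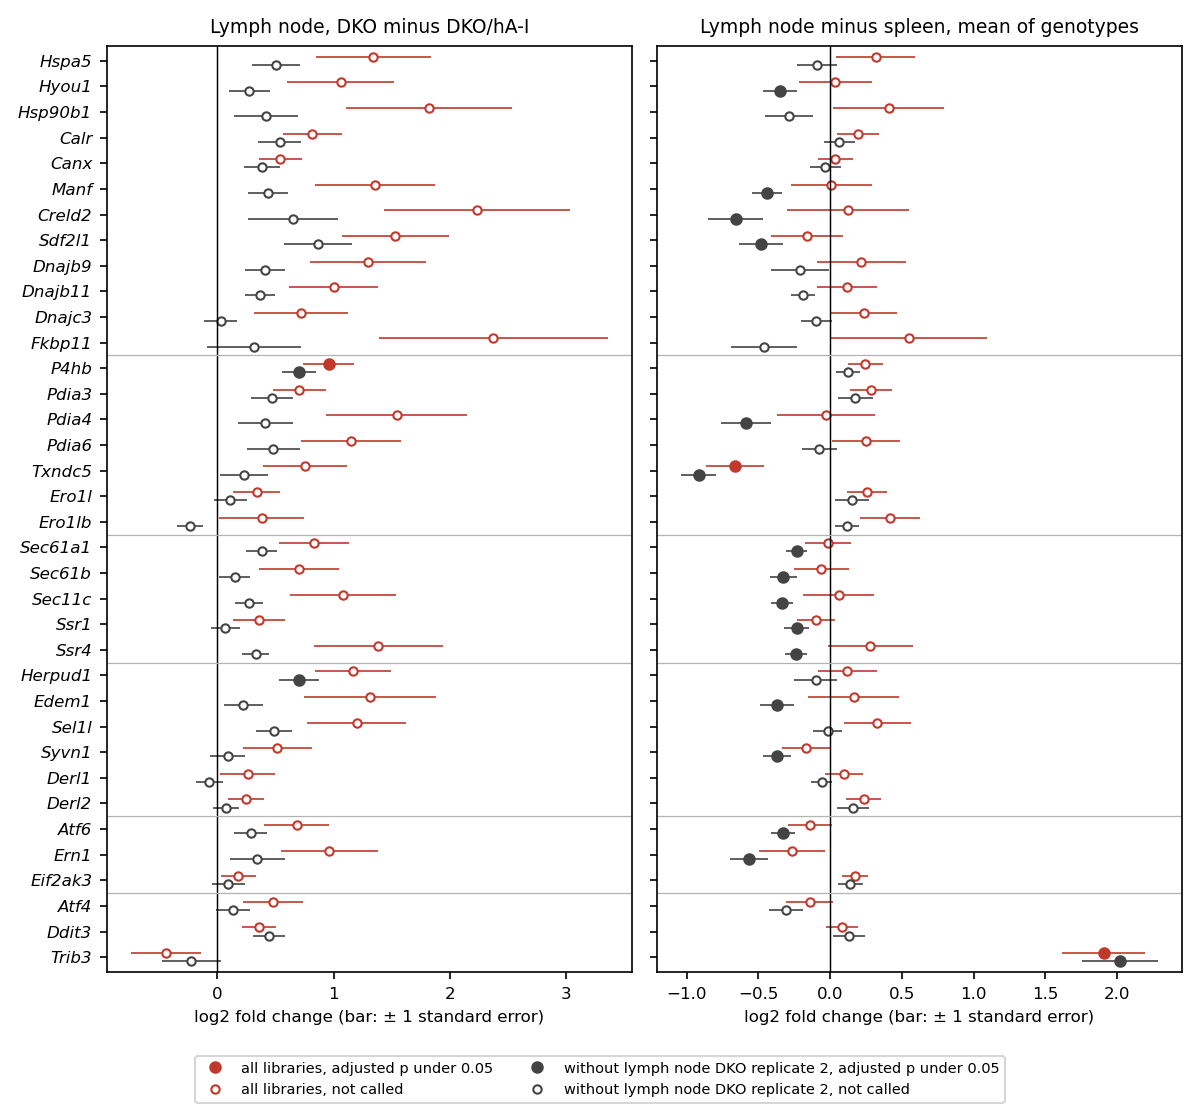
Log2 fold change of each gene (vertical axis) between genotypes in lymph node (left) and between tissues (right), with bars of 1 standard error, for all libraries (red) and without DKO lymph node replicate 2 (grey), where filled points have an edgeR adjusted p under 0.05. Without that library the tissue differences lie left of 0 for 27 of 36 genes, and 16 of the 36 points are filled, 15 of them left of 0.

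Between tissues, 2 of the 36 genes were called when both genotypes were averaged, against 35.4% of all genes. Trib3 was higher in lymph node, at 4.86, 2.53 and 4.85 CPM in DKO nodes against 4.74, 6.77 and 5.59 in DKO/hA-I nodes against 0.552, 1.47 and 1.90 and 1.24, 1.83 and 0.775 in the spleens of these genotypes. Every node lay above every spleen, and the log2 fold change was 1.91 ± 0.29 (edgeR adjusted p = 0.000193). Txndc5, an oxidoreductase abundant in secretory cells, was lower in lymph node, at 280.0, 699 and 329 CPM in DKO and 343, 231 and 212 in DKO/hA-I nodes against 555, 569 and 550.4 and 445, 514 and 580.4 in the spleens. DKO node 2 lay above all spleens, and the other 5 nodes lay below all of them. The log2 fold change of Txndc5 was -0.66 ± 0.20 (edgeR adjusted p = 0.0214), a call lost without DKO node 3, DKO/hA-I node 2 or 3, or DKO/hA-I spleen 3 (edgeR adjusted p = 0.0574 to 0.0634), and over the 36 genes the median was 0.12 against 0.02 for all genes.

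This tissue comparison turned on the DKO nodes. Without DKO node 1, 5 of the 36 genes were called, 4 of them higher in lymph node, against 32.6% of all genes. Without DKO node 2 instead, 16 of the 36 genes were called, against 41.7% of all genes (6193 of 14835), and 15 of them were lower in lymph node. These were 4 folding chaperones (Hyou1, Manf, Creld2 and Sdf2l1), 2 oxidoreductases (Pdia4 and Txndc5), all 5 translocation genes, the degradation genes Edem1 and Syvn1, and the sensors Atf6 and Ern1. With all libraries Creld2, Manf and Sec11c were not called and stood at 0.12, 0.01 and 0.06. Without DKO node 2 they had the opposite sign. Creld2 was at -0.66 ± 0.19 (edgeR adjusted p = 0.0175), Manf at -0.44 ± 0.10 (adjusted p = 0.00393) and Sec11c at -0.33 ± 0.08 (adjusted p = 0.00314). Txndc5 was at -0.92 ± 0.12 (adjusted p = 4.97e-05), and Trib3 remained higher at 2.02 ± 0.27 (adjusted p = 4.01e-05). The median was -0.22 against 0.02 for all genes. Plasma cell markers moved alongside: 7 of 10 were called lower in lymph node without DKO node 2 (median -0.92) and 1 of 10 with it (median -0.20). Their part was not tested.

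Within DKO/hA-I animals, whose nodes do not include that library, Txndc5 stood lower in lymph node (-0.97 ± 0.29, edgeR adjusted p = 0.0244) and Trib3 higher (2.16 ± 0.40, adjusted p = 0.00146), 2 of 36 against 25.7% of all genes. All 12 folding chaperones and all 5 translocation genes had a negative log2 fold change there, and the median of the 36 genes was -0.27 against 0.01. The same contrast from a fit without DKO node 2, which sets the shared spread, called 10 of 36 genes, 9 of them lower, against 31.2% of all genes. Atf6 was then at -0.46 ± 0.11 (edgeR adjusted p = 0.00615) and Ern1 at -0.67 ± 0.18 (adjusted p = 0.00963). Leaving out DKO/hA-I node 2 or 3 or DKO/hA-I spleen 2 or 3 ended the Txndc5 call (edgeR adjusted p = 0.0690 to 0.104). All 10 plasma cell markers were negative in this contrast (median -1.05, 2 called lower).

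Within DKO animals, P4hb (0.66 ± 0.17, edgeR adjusted p = 0.0146) and Trib3 (1.65 ± 0.41, adjusted p = 0.0108) were higher in lymph node, 2 of 36 against 22.8%. P4hb stood at 408, 726 and 512 CPM in DKO nodes and 376, 327 and 341 in DKO spleens, without overlap. Without DKO node 2, P4hb and Trib3 were higher and Txndc5 and Syvn1 lower, 4 of 36 against 29.8%. P4hb was then at 0.41 ± 0.12 (edgeR adjusted p = 0.0240). Without DKO node 1, 10 of 36 were called against 20.0% of all genes, all 10 higher in lymph node, and without DKO spleen 2 the P4hb call was lost (edgeR adjusted p = 0.0582). Ddit3 and Atf4 were not called between tissues with genotypes averaged, at 0.08 ± 0.11 and -0.14 ± 0.16. Ddit3 came to 0.13 ± 0.11 (edgeR adjusted p = 0.368) and Atf4 to -0.31 ± 0.12 (edgeR adjusted p = 0.0546) without DKO node 2, and neither was called.

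Of the further lists, the integrated stress response held most of the tissue calls when genotypes were averaged. Of 22 genes 5 were higher and 6 lower in lymph node, led by Vldlr (2.37 ± 0.19, edgeR adjusted p = 6.32e-07) and Ppp1r15a (-1.65 ± 0.21, adjusted p = 3.91e-05), the stress-induced phosphatase subunit that reverses the PERK block. Of 21 folding genes 1 was lower (Pdia5), of 9 regulators 3 were higher and of 13 translocation genes none was called by edgeR (1 with an unadjusted p under 0.05). These shares stand against the 35.4% of all genes called. Cell type markers differed between the tissues as well: 8 of 8 adipocyte markers (median log2 fold change 5.08) and 8 of 8 T cell markers (0.78) were called higher in lymph node and 8 of 8 erythroid markers lower (-7.68). Vldlr stood at 12.6, 14.3 and 15.7 CPM in DKO nodes and 38.2, 46.6 and 20.8 in DKO/hA-I nodes, lower in DKO as the adipocyte markers were. The part of these cell types in the tissue differences was not tested.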

How the data were processed

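Poly(A) RNA of spleen and axillary lymph node was measured in 12 libraries, 3 in each of 4 groups named from the labels (tissue and genotype). Raw read counts per gene were deposited in 1 table for each tissue, per the file headers. The submitters' processing notes name Trimmomatic, Bowtie, TopHat, Cuffdiff and the build GRCm38 (mm10), with no versions. The sources used here do not name the counting program, its strand setting or the annotation. Beside the counts the tables hold the authors' own comparison of the genotypes, of which the deposited q-values were used and the FPKM columns were not. Count columns were matched to libraries through the animal code in each description.

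The genes described and all lists of further genes and markers were chosen with earlier results of these data known. Low genes were removed with filterByExpr (at least 10 counts, and 15 in total), and the rest were tested with the quasi-likelihood test of edgeR 4.0.16 in R 4.3.3, with TMM scaling and robust dispersions. Each tissue was fitted apart for the genotype contrasts (14009 genes in spleen, 14012 in lymph node), and 1 fit of 12 libraries with 4 group means gave the tissue contrasts and the interaction (14608 genes). All 36 genes passed the filter in each fit. Calls are Benjamini-Hochberg adjusted p-values under 0.05 over all genes tested. CPM values are counts scaled to library size on the TMM scale of the 12-library fit, and ± is the SD over libraries for CPM and the standard error for log2 fold changes. The spread behind each p-value is that between these libraries, which may be technical where animals are not stated to be separate. Libraries of 1 group differed by 10.0 to 59.9 times the Poisson expectation, so none was a copy. Intervals and floors (3 counts) cover counting error only. Alternatives were DESeq2 1.42.0, limma 3.58.1 voom, other scalings, no filter, the replicate number or the animal code as a block, 1 fit of all libraries, and leaving out each library. DESeq2 was run without filterByExpr, so its shares of all genes are over other sets of genes than those of edgeR. All 36 genes are named, and of further lists at most 2 called genes per list and contrast. Coordinates of genes come from GENCODE vM21 on GRCm38, and promoter sequences from RefSeq (GRCm38.p6). The scripts were tested on simulated counts. The tissue contrast of the further degradation genes is not reported here.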

Additional observations from a re-analysis of the deposited data

Results flagged for a closer look

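Wfs1, an ER membrane protein among the further regulators of the response, differed between the tissues in its genotype difference. It stood at 106, 38.6 and 98.4 CPM in DKO nodes 1, 2 and 3 and at 17.2, 16.7 and 15.5 in DKO/hA-I nodes, against 18.0, 22.3 and 23.0 in DKO spleens and 14.3, 19.2 and 18.0 in DKO/hA-I spleens. All 3 DKO nodes lay above all DKO/hA-I nodes, with the lowest value in DKO node 2, where the chaperones were highest. The DKO minus DKO/hA-I difference was 2.31 ± 0.35 on the log2 scale in lymph node and 0.29 ± 0.16 in spleen, and the difference between them was 2.01 ± 0.41 (edgeR interaction term, adjusted p = 0.0216). Wfs1 was the only call of this term among the 36 genes and all the further lists. Of all 14608 genes tested 3.33% were called, so a single call is below the background. Macrophage markers summed to 3740, 1328 and 4610 CPM in the same 3 DKO nodes, and their part in this result was not tested.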

How the results depend on the processing

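Of the 36 genes, lymph node calls between genotypes numbered 1 as reported, 9 with DESeq2, 0 with limma voom, 0 with total counts only, 0 with the replicate block and 14 in 1 fit of 12 libraries (which then included Hspa5, Hsp90b1 and Creld2). Leaving out each library gave 0 to 2 calls there, 2 without DKO node 2. Spleen genotype calls numbered 0 in all settings run except the animal code as a block, which gave 2. Tissue calls with genotypes averaged ran from 1 to 16 when each library was left out, 16 without DKO node 2 and 5 without DKO node 1. Leaving out each library of the contrast gave 1 to 10 calls within DKO, 10 without DKO node 1 and 4 without DKO node 2, and 1 to 2 within DKO/hA-I. DESeq2 gave 4 within DKO, a count given without the share of all genes called in that fit. DKO node 2 is outside the DKO/hA-I contrast but enters its fit, and without it that contrast gave 10 calls (a setting chosen after seeing the data). The interaction gave 1 call with DESeq2 and 0 to 1 when each library was left out. Without DKO node 2, 6 genes not called with all libraries were called in the averaged tissue contrast, with the opposite sign. With all libraries they stood at 0.04 (Hyou1), 0.01 (Manf), 0.12 (Creld2), 0.06 (Sec11c), 0.28 (Ssr4) and 0.16 (Edem1). As each library was left out, Hyou1 ranged from -0.35 to 0.19, Manf from -0.44 to 0.18 and Creld2 from -0.66 to 0.35. Sec11c ranged from -0.33 to 0.22, Ssr4 from -0.24 to 0.46 and Edem1 from -0.37 to 0.35. The lowest value was that without DKO node 2 in each. The cause of these changes was not tested. The replicate numbers of the titles did not pair the samples, since deviations of same-numbered libraries correlated by -0.14 to 0.11, and the replicate block moved only the lymph node count given above. DKO node 2 is also the shallowest library (5911835 counts), and Trib3, with 5 to 19 counts per spleen, is the gene that depth limits most.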
